A study of Mus musculus with 2 samples.

Results

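Corticosteroid receptors, the proteins that control their access to hormone, their target genes and the corticotropin-releasing hormone system were described in RNA from the hippocampus of 10-day-old mice. The 10 genes were chosen by their symbols, Nr3c2, Nr3c1, Fkbp4, Fkbp5, Hsd11b1, Sgk1, Tsc22d3, Crh, Crhbp and Crhr1, out of 55536 annotated genes. Corticosterone, the main adrenal steroid of mice, acts on nerve cells through a high-affinity mineralocorticoid receptor and a lower-affinity glucocorticoid receptor, and the hippocampus is known for holding both. Before hormone binds, these receptors sit in a complex with Hsp90 and immunophilins, and after it they enter the nucleus and switch target genes on or off. Corticotropin-releasing hormone, which starts the hormonal stress response from the hypothalamus, is also made by hippocampal interneurons and acts there on its own receptor.

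The study holds 1 group of 2 biological replicates and no treatment, so its comparisons are between genes and between the libraries. Each library was total RNA from the hippocampus of B6CASTF1/J mice, the F1 hybrid of a C57BL/6J and a CAST/EiJ parent, labelled male and 10 days old. Each label names 3 males with running numbers that differ between the libraries, and does not say whether their tissue was pooled. The libraries began from 300 ng of RNA, with spike-in RNA added.

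Replicate 2 held 29747193 expected counts and replicate 1 held 32035705, and all differences below are replicate 2 over replicate 1 after scaling by TMM. The sex-linked genes of replicate 2 went against its label. Xist, the RNA that coats an inactive X chromosome, had 30841 counts in the library labelled male, replicate 2, against 25 in replicate 1. The Y-linked genes Ddx3y and Eif2s3y had 0 counts each in the library labelled male, replicate 2, against 2164 and 1302 in replicate 1. Levels of the chosen genes are therefore given for each library, and their values in replicate 1 stand for those without replicate 2. Some other genes are given only as a mean and SD over both libraries. Those means, and the order of genes by mean TPM, include replicate 2. The labels give the tissue as layer of hippocampus, and 8 of 8 markers of hippocampal excitatory neurons had a TPM of at least 1 in both libraries, whereas 0 of 7 hypothalamic markers did.

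All 10 genes were detected, with a TPM of at least 1 in both libraries. Their expected counts from alignments were whole numbers in both, with no fraction of a read shared out between them and another gene. By mean TPM, a level per transcript length, the order was Fkbp4 (52.2), Nr3c2 (49.9), Tsc22d3 (29.8), Sgk1 (28.6), Nr3c1 (27.8), Fkbp5 (18.4), Hsd11b1 (15.8), Crhbp (7.34), Crhr1 (4.91) and Crh (1.94). The ranges of the libraries overlapped between 3 pairs of neighbours in that order, Fkbp4 with Nr3c2, Tsc22d3 with Sgk1, and Sgk1 with Nr3c1. The other neighbours did not overlap. In levels estimated directly from the FASTQ file the same 3 pairs overlapped, and Nr3c1, at a mean of 54.9 TPM, stood above Tsc22d3 and Sgk1 there. Those FASTQ-based levels were higher for genes in general, by a median of 0.63 on the log2 scale in replicate 2 and 0.63 in replicate 1 over 18491 genes. The FASTQ-based counts of Fkbp4, Fkbp5, Sgk1 and Tsc22d3 were not whole numbers.

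**Figure D1:**
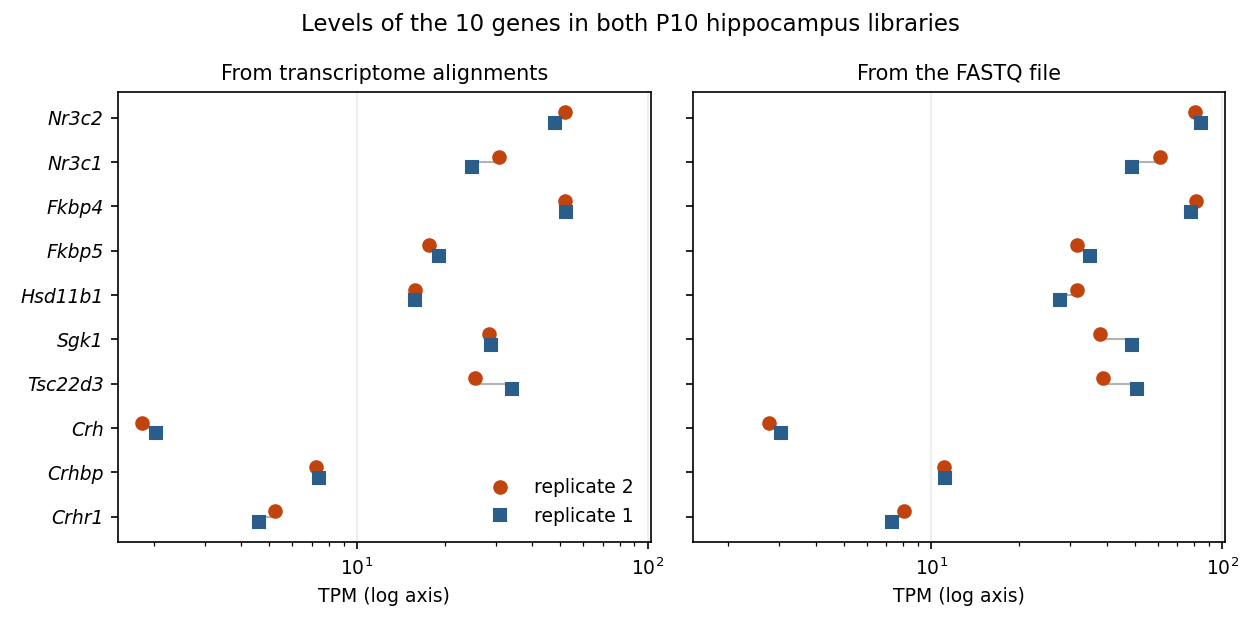
TPM of each gene on a log axis, in replicate 2 (circles) and replicate 1 (squares), from transcriptome alignments (left) and from the FASTQ file (right). The genes span from about 1.94 TPM for Crh to 52.2 TPM for Fkbp4 by alignment, and the gap between the libraries is widest for Nr3c1 and Tsc22d3 on the left.

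The mineralocorticoid receptor was the more abundant receptor mRNA per length. Nr3c2, which encodes it (ENSMUSG00000031618.13, chromosome 8, 76899442 to 77245012, plus strand, mm10), had 52.0 TPM in replicate 2 and 47.9 TPM in replicate 1. Nr3c1, which encodes the glucocorticoid receptor (ENSMUSG00000024431.15, chromosome 18, 39410545 to 39519421, minus strand), had 30.7 TPM in replicate 2 and 24.9 TPM in replicate 1. Nr3c2 thus stood above Nr3c1 in both libraries. Among 22028 protein-coding genes ordered by mean TPM, Nr3c2 took rank 2188 and Nr3c1 rank 4145.

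The log2 TPM ratio of Nr3c2 over Nr3c1 was 0.76 in replicate 2 and 0.94 in replicate 1, with a mean of 0.85 ± 0.13 (SD, n = 2). No test over samples was run, since the smallest two-sided p that an exact sign-flip test of 2 libraries allows is 0.5. The authors' deposited intervals did not overlap between the receptors: in replicate 2 that of Nr3c2 ran from 48.5 to 54.7 TPM and that of Nr3c1 from 28.5 to 32.5 TPM. In replicate 1 the interval of Nr3c2 ran from 44.9 to 49.8 TPM and that of Nr3c1 from 23.1 to 26.5 TPM. The FASTQ-based ratio was smaller, 0.40 in replicate 2 and 0.79 in replicate 1, with the same direction.

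Of the receptors, Nr3c1 alone differed between the libraries past the test. Nr3c1 had 2758 counts in replicate 2 and 2462 in replicate 1, a log2 ratio of 0.28 with a 95% counting interval of 0.20 to 0.36 (two-sided exact binomial test, Benjamini-Hochberg adjusted p = 2.94e-10). Nr3c2 had 5064 counts in replicate 2 and 5244 in replicate 1, a log2 ratio of 0.06 (interval 0.01 to 0.12) that did not pass (adjusted p = 0.152, same exact test). These p-values compare the reads of the 2 libraries, not conditions, and counting error is the only error in them. In RNA from whole tissue, fewer cells of a type and less RNA per cell cannot be told apart.

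The test took in 12879 genes, those whose counts averaged 100 or more, and called 11.8% of them, 6.28% higher and 5.5% lower in replicate 2. Of the 9 genes of the system that were tested, 1 was called higher (Nr3c1) and 2 lower (Tsc22d3 and Fkbp5). FASTQ-based counts called these 3 genes again and no other of the 9, where 11.9% of tested genes were called, 6.65% higher and 5.22% lower. Their log2 ratios were larger in size than most: 6.69% of tested genes had a larger one than Nr3c1, 4.45% than Fkbp5 and 1.97% than Tsc22d3. None of the 3 reached a difference of 2-fold, which 0.303% of tested genes passed. For comparison, the central 95% of tested genes lay between log2 ratios of -0.31 and 0.31.

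**Figure D2:**
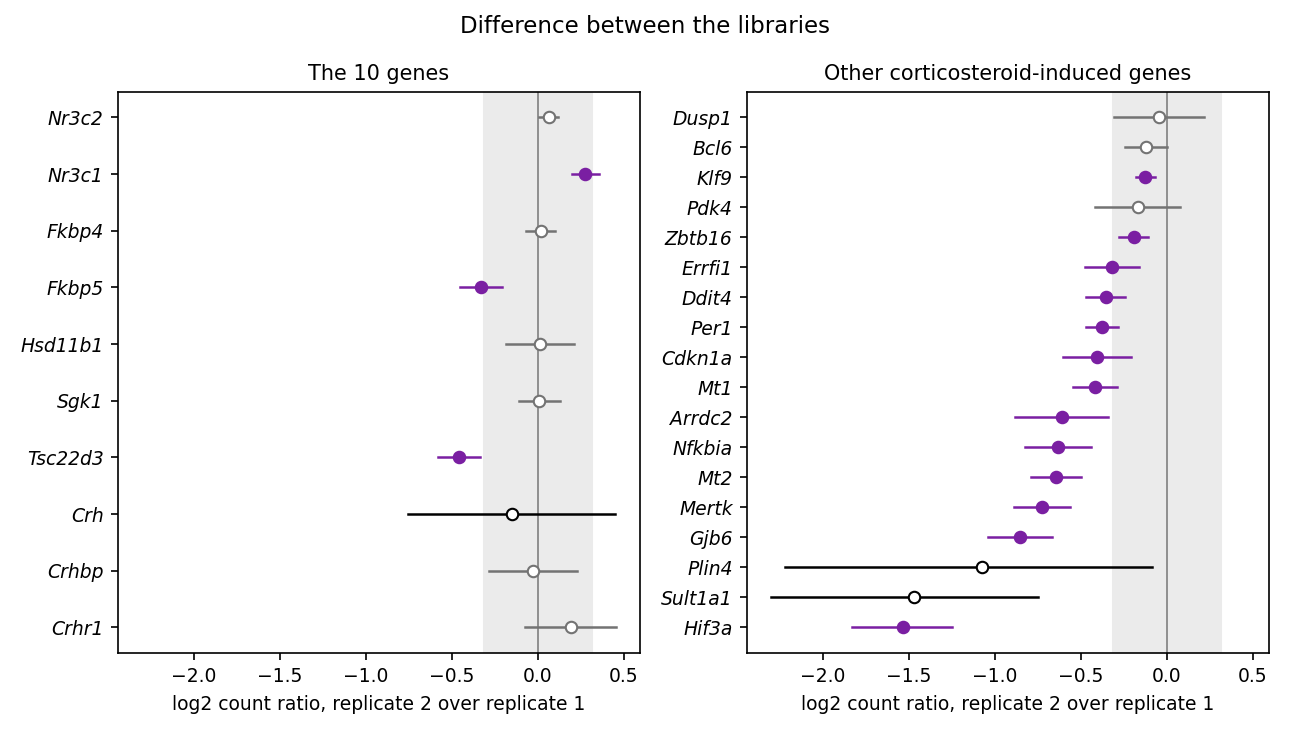
Log2 count ratio of replicate 2 over replicate 1 for the 10 genes (left) and for the other corticosteroid-induced genes of the list (right), with exact 95% counting intervals; filled purple points passed an adjusted p of 0.05, open grey points did not, open black points had too few counts to be tested, and the grey band holds the central 95% of tested genes. On the left Nr3c1 lies to the right of 0, Fkbp5 and Tsc22d3 to its left, and on the right all 18 genes lie to the left of 0.

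The receptor chaperones were abundant and, apart from Fkbp5, nearly level between the libraries. Fkbp4 (ENSMUSG00000030357.10, chromosome 6, 128429735 to 128438677, minus strand), the immunophilin that links the receptor complex to dynein for transport to the nucleus, had 51.9 TPM in replicate 2 and 52.4 TPM in replicate 1. Fkbp5 (ENSMUSG00000024222.17, chromosome 17, 28399094 to 28517527, minus strand), the immunophilin that lowers the affinity of the receptor for hormone and is itself induced by corticosteroids, had 17.7 TPM in replicate 2 and 19.2 TPM in replicate 1. Fkbp4 was the higher of the pair in both libraries: the log2 TPM ratio of Fkbp5 over Fkbp4 was -1.55 in replicate 2 and -1.44 in replicate 1.

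Fkbp5 was called lower, Fkbp4 was not called. Fkbp5 had 962 counts in replicate 2 and 1306 in replicate 1, a log2 ratio of -0.33 (interval -0.45 to -0.21, exact binomial test, adjusted p = 3.08e-06). Its TPM values differed by a smaller factor than its counts, and the mix of its transcripts differed as well. The 838-base processed transcript Fkbp5-203 held 22.2% of the gene's TPM in replicate 2 and 4.28% in replicate 1, and the 3543-base coding transcript Fkbp5-201 held 72.4% in replicate 2 and 87.6% in replicate 1. The FASTQ route gave Fkbp5-203 no TPM in either library, so that split rests on a single route. Fkbp4 had 2198 counts in replicate 2 and 2349 in replicate 1, with a log2 ratio of 0.02 (interval -0.07 to 0.10).

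Of 16 chaperones and co-chaperones of the receptors, all detected and tested, 2 were called higher and 1 (Fkbp5) lower, with a median log2 ratio of -0.003. Of all tested genes 6.28% were called higher and 5.5% lower, with a median of 0.0003. Hspa8, the constitutive Hsp70, was the most abundant at 1036 TPM in replicate 2 and 1020 TPM in replicate 1, and was called higher by a log2 ratio of 0.06. Hspa4, an Hsp110-type exchange factor, was called higher by 0.08. The Hsp90 genes Hsp90ab1 and Hsp90aa1, the core of the complex, averaged 805 ± 2.29 TPM and 460 ± 1.37 TPM (SD, n = 2) and were not called. Dnajb1, an Hsp40 co-chaperone, was the lowest of the list, at 14.3 TPM in replicate 2 and 15 TPM in replicate 1.

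The coregulators that the receptors recruit in the nucleus were similarly level. All 10 of the list were detected and tested, with a median log2 ratio of 0.04. Of these, 1 was called higher and 0 lower, against 6.28% and 5.5% of all tested genes. The corepressor gene Ncor1 averaged 125 ± 3.23 TPM (SD, n = 2) and was not called. The coactivator Ncoa1 averaged 49.0 ± 0.88 TPM and the coactivator Ncoa3, the lowest of the list, 14.7 ± 0.48 TPM.

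Among enzymes and transporters that set the hormone level inside cells, the one that regenerates corticosterone stood far above the one that inactivates it. Hsd11b1 (ENSMUSG00000016194.14, chromosome 1, 193221634 to 193264075, minus strand), the reductase that turns inert 11-dehydrocorticosterone back into corticosterone, had 15.8 TPM in replicate 2 and 15.8 TPM in replicate 1. It had 413 counts in replicate 2 and 443 in replicate 1, and its log2 ratio of 0.01 (interval -0.19 to 0.21) was not called. Hsd11b2, the dehydrogenase that shields mineralocorticoid receptors in the kidney, had 2 counts in replicate 2 and 1 in replicate 1.

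Per length and with no pseudocount, the TPM of Hsd11b1 was 264-fold that of Hsd11b2 in replicate 2 (95% counting interval 72.5 to 2183) and 528-fold in replicate 1 (94.2 to 20888). H6pd, the enzyme that supplies the NADPH for Hsd11b1 in the endoplasmic reticulum, had 4.47 TPM in replicate 2 and 4.81 TPM in replicate 1. The log2 TPM ratio of Hsd11b1 over H6pd was 1.80 in replicate 2 and 1.70 in replicate 1, but it nearly vanished on counts not divided by length, 0.22 in replicate 2 and 0.12 in replicate 1. Of the 10 genes of the list, 5 were detected, 4 were tested and 0 were called, against 11.8% of all tested genes. Srd5a1, a steroid reductase, averaged 9.98 ± 0.39 TPM and Abcb1a, a drug efflux pump of brain vessels that exports steroids, 5.44 ± 0.07 TPM (SD, n = 2). Some reads of Abcb1a are shared with its near copy Abcb1b, so its level is uncertain. Serpina6, the corticosteroid-binding globulin of plasma, had 0 counts in both libraries, below the floor of 3 counts.

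Of the target genes Sgk1 and Tsc22d3, the second was called lower in replicate 2. Sgk1 (ENSMUSG00000019970.15, chromosome 10, 21882184 to 21999903, plus strand), a kinase that regulates ion channels and transporters and is induced through both receptors, had 28.4 TPM in replicate 2 and 28.9 TPM in replicate 1. It had 1110 counts in replicate 2 and 1193 in replicate 1, with a log2 ratio of 0.01 (interval -0.11 to 0.13). Tsc22d3 (ENSMUSG00000031431.13, chromosome X, 140539528 to 140600659, minus strand), which encodes the glucocorticoid-induced leucine zipper protein, had 25.4 TPM in replicate 2 and 34.3 TPM in replicate 1. It had 897 counts in replicate 2 and 1332 in replicate 1, a log2 ratio of -0.46 (interval -0.58 to -0.33, exact binomial test, adjusted p = 1.08e-11).

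By counts Sgk1 was level between the libraries, while Tsc22d3 had the largest difference of the 10 genes. The TPM of Sgk1 from the FASTQ file was not level, at 37.9 in replicate 2 and 49.0 in replicate 1. Its FASTQ-based log2 count ratio was 0.03. Tsc22d3 lies on the X chromosome, where the library labelled male, replicate 2, stands apart. There 19.3% of 445 tested genes were called lower and 10.3% higher, against 5.5% lower and 6.28% higher among all tested genes. The part of that difference in the value of Tsc22d3 was not tested.

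Within its kinase family Sgk1 was the highest member. Sgk3, an endosomal relative, averaged 3.57 ± 0.52 TPM and Sgk2 averaged 0.27 ± 0.21 TPM (SD, n = 2). The log2 TPM ratio of Sgk1 over Sgk3 was 2.82 in replicate 2 and 3.13 in replicate 1. In the TSC22 family the order ran the other way, since Tsc22d1, a transcription regulator induced by transforming growth factor beta, averaged 241 ± 14.6 TPM and Tsc22d3 29.8 ± 6.26 TPM. The log2 TPM ratio of Tsc22d3 over Tsc22d1 was -3.18 in replicate 2 and -2.87 in replicate 1. All 4 family members had log2 ratios below 0 between the libraries, as did 6429 of all 12879 tested genes. The family had 2 called lower, Tsc22d3 and Tsc22d1, the second by only -0.08, against 5.5% of all tested genes. The intervals of Tsc22d2 (-0.14 to 0.04) and Tsc22d4 (-0.13 to 0.09) spanned 0. Tsc22d4 averaged 63.2 ± 0.14 TPM and Tsc22d2, the lowest, 16.2 ± 0.39 TPM.

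A wider list of 21 genes that corticosteroids induce in many tissues was mostly lower in replicate 2. It includes Fkbp5, Sgk1 and Tsc22d3, and it was drawn up with earlier results of these libraries known, the low Hif3a among them, so its direction is a description and no independent evidence. Of the 21 genes, 19 were detected and the same number had enough counts to be tested. Of those tested, 15 were called lower and 0 higher in replicate 2, against 5.5% and 6.28% of all tested genes. Within the range of mean counts that the list spans, 4.99% of 9614 genes were called lower and 5.47% higher. In all, 18 of the 19 had a log2 ratio below 0, with a median of -0.38, while 6429 of all 12879 tested genes did, with a median of 0.0003.

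Without the 3 genes that are also in the system described here, 13 of 16 tested genes were called lower, with a median log2 ratio of -0.39. Without Hif3a 14 were called lower, and without Gjb6, Mertk, Mt1 and Mt2, which astrocytes also express, 11 were. On autosomes alone 14 were called lower. Of all tested genes 5.5% were called lower. These subsets were chosen after the data were seen. Hif3a, Gjb6, Mertk, Mt1, Mt2 and the X-linked Tsc22d3 were each called lower, so leaving them out only subtracts them and is no check of the list. The part of astrocytes in the list was not tested.

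The most abundant genes of that list were the metallothioneins Mt1 and Mt2, which bind zinc, and Klf9, a zinc finger transcription factor. Mt1 had 92.8 TPM in replicate 2 and 123 TPM in replicate 1, and was called lower by a log2 ratio of -0.42. Mt2 had 80.4 TPM in replicate 2 and 130 TPM in replicate 1, with a log2 ratio of -0.64. Klf9 had 56.0 TPM in replicate 2 and 61.3 TPM in replicate 1, with a log2 ratio of -0.12. The metallothioneins lay outside the central 95% of tested genes, whereas Klf9 passed the test with a difference well inside it.

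Hif3a, a hypoxia-inducible factor family member, was the single gene of the list past 2-fold, which 0.155% of tested genes passed in that direction. It had 132 counts in replicate 2 and 414 in replicate 1, a log2 ratio of -1.53 (interval -1.83 to -1.25, exact binomial test, adjusted p = 4.68e-28). Gjb6, a gap junction protein of astrocytes, had 354 counts in replicate 2 and 692 in replicate 1 (log2 ratio -0.85). Mertk, a receptor kinase for phagocytosis, followed with 487 counts in replicate 2 and 871 in replicate 1 (log2 ratio -0.73). These are the genes of the list farthest below 0 among its 19 tested ones.

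Other genes of the list called lower were Nfkbia, the inhibitor of NF-kappaB, with a log2 ratio of -0.63, Ddit4, an inhibitor of mTOR signalling, with -0.35, and Errfi1, an inhibitor of the EGF receptor, with -0.32. The clock gene Per1 had 1565 counts in replicate 2 and 2198 in replicate 1 (log2 ratio -0.38). The cell cycle inhibitor Cdkn1a had a log2 ratio of -0.40, the arrestin-domain gene Arrdc2 one of -0.61 and the zinc finger transcription factor Zbtb16 one of -0.19, all past the test.

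The 4 tested genes that did not pass were Sgk1, Pdk4, Bcl6 and Dusp1. Pdk4, a kinase that turns down pyruvate dehydrogenase, had a log2 ratio of -0.17 (interval -0.42 to 0.08), and the transcriptional repressor Bcl6 had one of -0.12 (interval -0.24 to 0.0007). Dusp1, a phosphatase of MAP kinases that neuronal activity also induces, had -0.04 (interval -0.30 to 0.22). The remaining pair had too few counts to be tested: Plin4, a lipid droplet protein and the lowest of the list at 0.11 TPM in replicate 2 and 0.23 TPM in replicate 1, and Sult1a1, a sulfotransferase with 20 counts in replicate 2 and 61 in replicate 1.

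**Figure D3:**
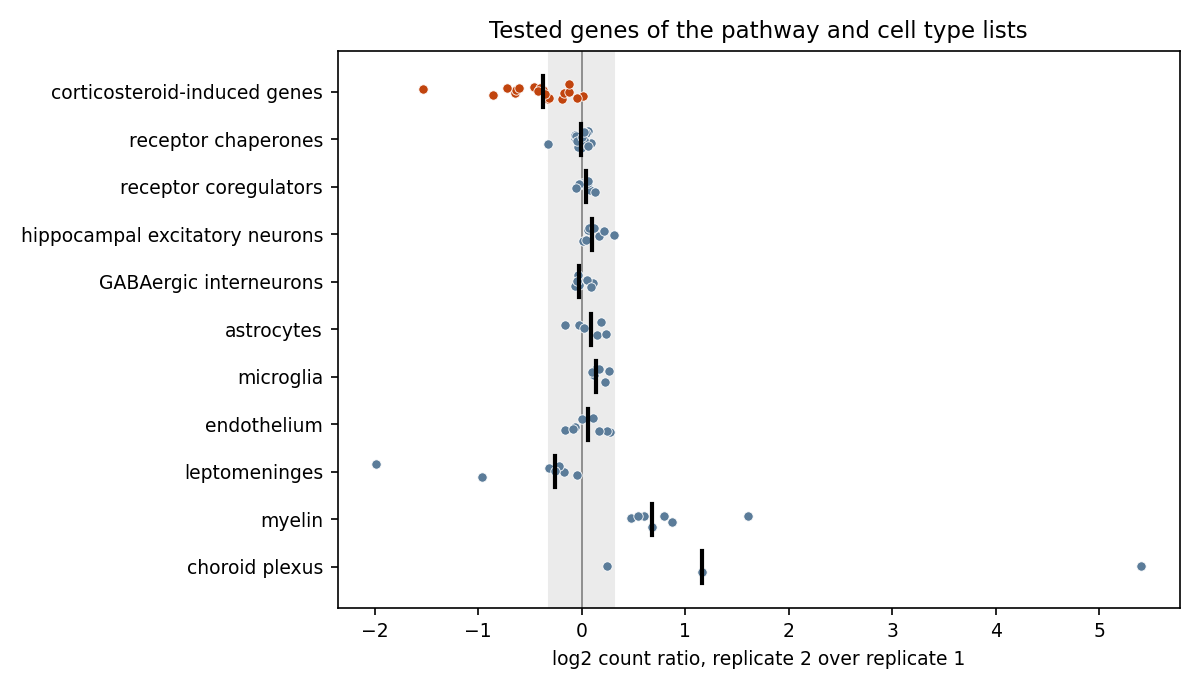
Log2 count ratio of replicate 2 over replicate 1 for each tested gene (points) of the pathway lists (top 3 rows) and cell type marker lists (other rows), with the median of each list as a black bar and the central 95% of tested genes as a grey band. The corticosteroid-induced genes have a median of -0.38, and the myelin and choroid plexus markers lie to the right. The chaperones other than Fkbp5 (-0.33) and the coregulators lie near 0.

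The libraries also differed in the markers of some cell types, with 6.28% of all tested genes called higher and 5.5% lower as the background of the counts that follow. Summed over the whole list, the 9 choroid plexus markers came to 359 TPM in replicate 2 and 13.7 TPM in replicate 1, nearly all of it Ttr, a thyroid hormone carrier (log2 ratio 5.41), and none of the list was at 0 counts. The 12 myelin markers summed to 361 TPM in replicate 2 and 214 TPM in replicate 1, and 7 of 7 tested were called higher. Of the 11 with a mean count of at least 10, 1 was lower. It was Aspa, not tested, with 19 counts in replicate 2 and 40 in replicate 1 (log2 ratio -0.94). The 8 leptomeningeal markers summed to 242 TPM in replicate 2 and 526 TPM in replicate 1, and 5 of 7 tested were called lower, Ptgds most (log2 ratio -1.99). The 6 astrocyte markers were close, at 596 TPM in replicate 2 and 576 TPM in replicate 1, with 3 called higher and 1 (Gja1, a gap junction protein) lower. The 8 markers of hippocampal excitatory neurons summed to 1839 TPM in replicate 2 and 1686 TPM in replicate 1, with 4 of 8 called higher and 0 lower. The 8 microglial markers summed to 159 TPM in replicate 2 and 141 TPM in replicate 1, with 3 of 7 tested called higher and 0 lower. The part of these cell types in the higher Nr3c1 and the lower corticosteroid-induced genes was not tested.

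The corticotropin-releasing hormone system was expressed at low levels, and its tested genes did not differ past the test. Crh (ENSMUSG00000049796.4, chromosome 3, 19693401 to 19695396, minus strand), the peptide itself, had 1.83 TPM in replicate 2 and 2.04 TPM in replicate 1. That rested on 45 counts in replicate 2 (exact Poisson 95% interval 32.8 to 60.2) and 54 in replicate 1 (40.6 to 70.5), too few for the test. Its log2 ratio was -0.15, and its interval from -0.75 to 0.45 spanned 0, so these counts do not settle the direction of a difference.

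Crhbp (ENSMUSG00000021680.8, chromosome 13, 95431371 to 95444924, minus strand), a secreted protein that binds the peptide and keeps it from its receptor, had 7.24 TPM in replicate 2 and 7.43 TPM in replicate 1. Crhbp mRNA thus exceeded that of its ligand: the log2 TPM ratio of Crhbp over Crh was 1.93 in replicate 2 and 1.82 in replicate 1. Crhbp had 245 counts in replicate 2 and 270 in replicate 1, with a log2 ratio of -0.03 (interval -0.28 to 0.23).

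Crhr1 (ENSMUSG00000018634.10, chromosome 11, 104132855 to 104175523, plus strand), the G protein-coupled receptor for the peptide, had 5.22 TPM in replicate 2 and 4.59 TPM in replicate 1. It had 248 counts in replicate 2 and 235 in replicate 1, with a log2 ratio of 0.19 (interval -0.07 to 0.45, exact binomial test, adjusted p = 0.434). Crhr2, the receptor that prefers urocortins, had 2.12 TPM in replicate 2 and 1.02 TPM in replicate 1, from 63 counts in replicate 2 and 46 in replicate 1. Its log2 count ratio was 0.56 (interval -0.005 to 1.15), with too few counts for the test. The log2 TPM ratio of Crhr1 over Crhr2 was 1.26 in replicate 2 and 2.07 in replicate 1, with Crhr1 above in both. From the FASTQ file it was 1.86 in replicate 2 and 1.16 in replicate 1, so which library had the larger ratio changed with the route.

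Of the 12 genes of the peptide and pituitary-adrenal list, 6 were detected, 3 were tested and 0 were called, against 11.8% of all tested genes. With 3 tested genes, 0 called is close to that share. Avpr1a, a vasopressin receptor of vessels, liver and brain, averaged 2.53 ± 0.20 TPM (SD, n = 2). The urocortin gene Ucn3 had 0 counts in both libraries. Summed over 7 hypothalamic markers, among them the peptides Avp, Oxt, Hcrt, Pmch and Agrp, the level was 0.85 TPM in replicate 2 and 0.84 TPM in replicate 1. Crh was thus measured in RNA in which the defining hypothalamic peptides were near 0.

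The 10 genes have 66 annotated transcripts, and the shares of those transcripts depended on how reads were assigned. For Nr3c2 both routes placed Nr3c2-204 first, with 53.1% of the gene's TPM in replicate 2 and 55.9% in replicate 1 by alignment, and 33.6% in replicate 2 and 37.9% in replicate 1 from the FASTQ file. The start region that led nevertheless changed with the route for Nr3c2, since its first region held 56.2% in replicate 2 and 55.9% in replicate 1 by alignment, and the next one 46.4% in replicate 2 and 44.3% in replicate 1 from the FASTQ file. For Nr3c1 the leading transcript by alignment was Nr3c1-203 in replicate 2 (45.7%) and Nr3c1-204 in replicate 1 (33.4%), and from the FASTQ file it was Nr3c1-204 in both. For Hsd11b1 the farthest upstream transcript, Hsd11b1-205, held 79.7% in replicate 2 and 82.1% in replicate 1 by alignment. From the FASTQ file it held 20.7% in replicate 2 and 0.001% in replicate 1. The leading transcripts of Nr3c1 and Hsd11b1 are therefore uncertain.

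Tsc22d3 transcripts began mostly at the downstream start region. That region held 95.7% of the gene's TPM in replicate 2 and 95.1% in replicate 1 by alignment, and 76.8% in replicate 2 and 81.0% in replicate 1 from the FASTQ file. By alignment the non-coding Tsc22d3-202 held 58.8% in replicate 2 and 39.3% in replicate 1, and the coding Tsc22d3-201 held 36.0% in replicate 2 and 54.6% in replicate 1, so the leading transcript differed between the libraries. From the FASTQ file Tsc22d3-201 led in both, with 75.5% in replicate 2 and 79.7% in replicate 1, and Tsc22d3-202 held 0.0165% in replicate 2 and 0% in replicate 1. The distal transcript Tsc22d3-203 held 3.90% in replicate 2 and 4.93% in replicate 1 by alignment.

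**Figure D4:**
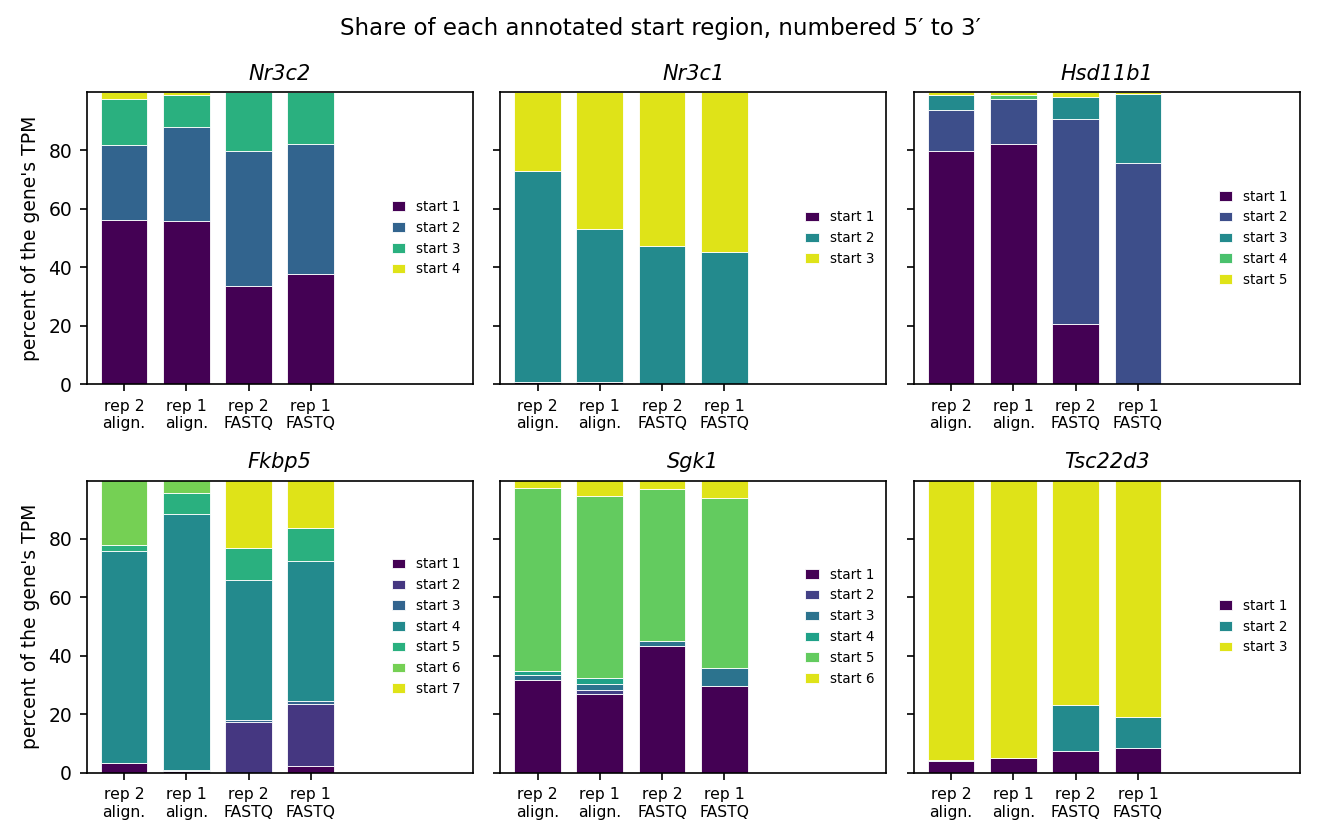
Percent of each gene's TPM that begins at each annotated start region (colours, numbered from 5′ to 3′; starts within 1000 bases are joined), for replicate 2 and replicate 1 by alignment and from the FASTQ file. For Tsc22d3 the last region leads in all 4 bars and for Sgk1 the fifth region leads with the distal region next, whereas the leading region of Nr3c2, Nr3c1 and Hsd11b1 changes with the route.

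Sgk1 transcripts began at a proximal and a distal region, and both routes placed the proximal one first. The proximal region, whose starts run from 21993890 to 21994910, held 62.8% of the gene's TPM in replicate 2 and 62.2% in replicate 1 by alignment, and 51.8% in replicate 2 and 58.1% in replicate 1 from the FASTQ file. The distal region at 21882184, which gives an Sgk1 protein with another amino end, held 31.7% in replicate 2 and 26.8% in replicate 1 by alignment, and 43.4% in replicate 2 and 29.7% in replicate 1 from the FASTQ file. Within the proximal region the routes disagreed: Sgk1-201, which starts at 21994666, held 35.8% in replicate 2 and 35.6% in replicate 1 by alignment against 7.01% in replicate 2 and 3.82% in replicate 1 from the FASTQ file. Sgk1-202, which starts at 21993890, held 1.76% in replicate 2 and 5.78% in replicate 1 by alignment against 26.8% in replicate 2 and 21.8% in replicate 1 from the FASTQ file.

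Corticosteroid receptors bind DNA as dimers at palindromes of TGTTCT and its reverse complement, AGAACA, set 3 bases apart. RefSeq promoter windows (GRCm38.p6, 250 bases before to 50 after a start) were read for 8 of the 10 genes, 15 windows in all, on both strands. The exact palindrome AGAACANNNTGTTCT occurred in 3 of 32851 windows, or 0.00913%, and 1 of those was the window of Sgk1-202. It spans chr10:21993701-21993715, from position -189 to -175 relative to that start and from -965 to -951 relative to the start of Sgk1-201. The single motif, with which the palindrome overlaps, is common, since 19.0% of all windows hold TGTTCT or AGAACA.

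The 250 bases before the distal start, the Sgk1-202 start and the Sgk1-201 start of Sgk1 are shown because they precede Sgk1-204 and Sgk1-201, each the leading transcript by 1 route, and hold the palindrome, and the 250 bases before the leading start of Fkbp5 because that gene was called lower. Capitals mark TGTTCT or AGAACA. They cover chr10:21881934-21882183, chr10:21993640-21993889 and chr10:21994416-21994665 on the plus strand and chr17:28486150-28486399 on the minus strand, all from RefSeq and GRCm38.p6.
Sgk1 distal start: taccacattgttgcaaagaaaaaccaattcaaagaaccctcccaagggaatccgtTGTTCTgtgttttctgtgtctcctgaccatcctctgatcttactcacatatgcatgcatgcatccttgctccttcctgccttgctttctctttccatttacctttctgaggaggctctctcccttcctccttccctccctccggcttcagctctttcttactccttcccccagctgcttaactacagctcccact
Sgk1-202 start: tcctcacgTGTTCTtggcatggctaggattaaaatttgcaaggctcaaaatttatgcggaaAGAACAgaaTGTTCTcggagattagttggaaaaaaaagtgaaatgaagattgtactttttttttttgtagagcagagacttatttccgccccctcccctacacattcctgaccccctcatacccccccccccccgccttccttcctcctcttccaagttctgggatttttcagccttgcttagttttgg
Sgk1-201 start: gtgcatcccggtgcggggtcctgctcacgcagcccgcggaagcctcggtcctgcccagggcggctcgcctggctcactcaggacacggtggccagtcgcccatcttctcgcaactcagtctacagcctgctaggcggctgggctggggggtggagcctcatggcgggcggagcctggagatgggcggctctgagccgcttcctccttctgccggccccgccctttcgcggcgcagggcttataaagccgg
Fkbp5-201 start: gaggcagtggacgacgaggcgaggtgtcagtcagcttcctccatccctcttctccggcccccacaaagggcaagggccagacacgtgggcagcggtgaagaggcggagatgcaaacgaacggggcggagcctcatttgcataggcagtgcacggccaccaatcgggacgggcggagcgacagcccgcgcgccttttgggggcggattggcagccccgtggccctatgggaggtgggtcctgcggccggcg

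The distal Sgk1 window held 1 motif, the Sgk1-202 window held 3, of which 2 form the palindrome, and the Sgk1-201 and Fkbp5 windows held 0. Of the other windows, 1 more of Sgk1, at the start of Sgk1-203, and the distal window of Tsc22d3 held 1 motif each, and those of Nr3c2, Fkbp4, Hsd11b1, Crhr1 and Crhbp and the remaining windows of Sgk1 and Tsc22d3 held 0. These matches describe letters in windows of 300 bases, and receptor binding was not measured here. The windows of Nr3c2 and Hsd11b1 lie downstream of the starts of their leading transcripts by either route. All 250 bases before the RefSeq start of Hsd11b1 lie in an annotated untranslated region. No window covers the start of Tsc22d3-201, the leading Tsc22d3 transcript from the FASTQ file. The absence of motifs in these windows therefore does not describe the sequence before those starts.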

How the data were processed

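Total RNA from hippocampus was sequenced in 2 libraries of 1 group. The authors deposited gene and transcript tables of expected counts and TPM from transcriptome alignments (mm10, GENCODE M21), per the file headers and labels. The authors also deposited there, per the file headers, a lower and an upper bound around each TPM, treated here as a score whose confidence level no source states. A transcript table from the FASTQ file holds estimated counts and TPM, deposited by the authors; its transcripts were summed per gene, and 86 genes had none. No source used here names the aligner or the counter.

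Expected counts were rounded. Rows of 97 spike-ins (0.359% of counts in replicate 2, 0.358% in replicate 1) and 26248 rows named only by a number (2e-05% in replicate 2, 2.81e-05% in replicate 1) were left out. Libraries were scaled by TMM (edgeR 4.0.16, R 4.3.3) over 17874 genes. The test covered 12879 genes whose counts averaged 100 or more, by a two-sided exact binomial test (scipy 1.17.1) with Benjamini-Hochberg adjustment. A gene is called at an adjusted p under 0.05. Log2 ratios carry a prior count of 0.5, intervals are exact (Clopper-Pearson, 95%), and intervals and floors cover counting error only. Pair ratios used log2(TPM + 0.1). The script was tested on simulated data.

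The members, lists, tests and alternatives were chosen with earlier results of these data known. The text names the 10 genes, the 3 highest and the lowest gene of a pathway list by mean TPM and any called gene past 2-fold; other genes were named after their values were seen, and 1 gene that the rule names is not reported here. Promoter sequences come from RefSeq, GRCm38.p6. Crh has no window there and the Nr3c1 windows are not used here.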

Additional observations from a re-analysis of the deposited data

How the results depend on the processing

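Scaling by DESeq2 size factors or by totals, a lower or no count minimum, and FASTQ-based counts left all 25 tested log2 differences, for the 9 genes of the system and the 16 other corticosteroid-induced genes, on their side of the threshold. Their direction also held, except for Dusp1, which was not called and had a log2 ratio of 0.0376 on FASTQ-based counts. The genes past 2-fold numbered 39 and became 175 with a mean count of at least 10 and 196 with no minimum. Those further genes have few counts. On autosomes alone, chosen after seeing the data, 1 gene of the system rather than 2 was called lower, because Tsc22d3 is left out.

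Pair ratios depended on the measure, with no sign reversed. On counts not divided by length the log2 ratio was 0.98 for Nr3c2 over Nr3c1, -1.02 for Fkbp5 over Fkbp4, 7.79 for Hsd11b1 over Hsd11b2 (mean of 6.79 on TPM), 0.17 for Hsd11b1 over H6pd, 2.37 for Crhbp over Crh, 2.36 for Sgk1 over Sgk3 and -3.39 for Tsc22d3 over Tsc22d1. From the FASTQ file it was 0.60 for Nr3c2 over Nr3c1, -1.25 for Fkbp5 over Fkbp4, 7.71 for Hsd11b1 over Hsd11b2, 1.96 for Hsd11b1 over H6pd and 2.58 for Sgk1 over Sgk3. With a pseudocount of 1 it was 4.01 for Hsd11b1 over Hsd11b2, 1.58 for Hsd11b1 over H6pd, 1.51 for Crhbp over Crh and 2.70 for Sgk1 over Sgk3. The cause was not tested. Leaving out a replicate gives the values of the other library, as printed. Crh, Crhr2 and Hsd11b2 rest on too few counts for a test. No paired analysis was possible because there is 1 group.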

Other observations

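Genes that neuronal activity induces, a list that shares Dusp1 with the corticosteroid-induced genes, were not lower in replicate 2 as a set. Of the 10 genes, 9 were detected, 8 were tested, and 2 were called higher and 0 lower in replicate 2, against 6.28% and 5.5% of all tested genes, with a median log2 ratio of 0.25. Among the tested genes 1 had a log2 ratio below 0 (Dusp1, -0.04), and among all 10 genes 2 did. Arc, a protein of the postsynaptic cytoskeleton, had 860 counts in replicate 2 and 646 in replicate 1 (log2 ratio 0.53), and the transcription factor gene Egr1 had 1639 in replicate 2 and 1394 in replicate 1 (log2 ratio 0.35). Junb and Nr4a1, the next most abundant, averaged 16.3 ± 1.64 TPM and 13.1 ± 0.59 TPM (SD, n = 2) and were not called, and Fosb, the lowest, averaged 1.17 ± 0.38 TPM.

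Of 5 markers of hippocampal area CA2, 4 were detected and tested, and 1 was called higher, against 6.28% of all tested genes. It was Rgs14, a regulator of G protein signalling, with 16.3 TPM in replicate 2 and 12.8 TPM in replicate 1 (log2 ratio 0.31). Pcp4, a calmodulin-binding peptide, averaged 127 ± 6.90 TPM (SD, n = 2) and was not called. Of the 5 markers, 2 had a log2 ratio below 0. Map3k15, with too few counts to be tested, had 33 counts in replicate 2 and 59 in replicate 1 (log2 ratio -0.72). Amigo2 had a log2 ratio of -0.02 and was not called.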
